A study of Arabidopsis thaliana with 7 samples.

Results

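Among the transcripts measured in Arabidopsis thaliana seedlings, 4 genes gave a clear signal in the C24-LUC strain and almost none in Col-LUC or in the sta1 mutant. They are AT1G61500, AT5G15360, AT4G22450 and AT1G09500, each read by 1 probe set, out of 22746 probe sets of plant genes on the Affymetrix ATH1 array. The 4 were chosen on measured values, as genes with large positive differences between the C24-LUC array and the Col-LUC arrays, so that difference is described here and not tested.

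The data came from 7 one-colour arrays: 1 of C24-LUC, 2 of sta1 and 4 of Col-LUC seedlings. Col and C24 are natural strains, and both LUC lines are labelled wild type. The sta1 samples are mutant seedlings, and the labels give no strain for them. The plants were 2 weeks old, raised at 22 °C under 16 h of light and 8 h of darkness on plates of MS medium containing 3% sucrose, and the titles describe them as untreated. For sta1 the growth text speaks of a different mutant, ice1, and the sample titles were followed. Whether arrays of a group stand for separate cultures is not stated, so p-values cover only array-to-array spread, in which biological and technical parts cannot be separated. RNA was taken from whole seedlings, so fewer cells of a type and less RNA per cell cannot be told apart.

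The array reads each transcript with short probes designed from the Col genome sequence, and a signal is a relative brightness with no absolute unit. AT1G61500 belongs to the S-domain receptor kinases, membrane proteins with a lectin-like outer part and an inner kinase. Relatives in Brassica recognise self pollen, and the Arabidopsis member SD1-29 senses fatty acid derivatives of bacteria. AT1G09500 encodes a reductase-type protein with an NAD(P)-binding fold, and is set here beside reductases of the cinnamoyl-CoA and dihydroflavonol type. AT4G22450 is annotated as a pseudogene in RefSeq, and its probe set carries the suffix that Affymetrix gave to sets whose probes match more than 1 transcript, so its signal may not come from that locus alone. AT5G15360 is annotated as a protein-coding gene without a symbol.

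Across the series, array medians of the signal ran from 207.8 to 215.7, and 63.9% to 65.3% of probe sets reached a signal of 100. Markers of green tissue and of roots were present on every array: the 4 green tissue markers RCA, PSAN, LHCB4.1 and PRK had signals from 1932 to 20155.4, and the root markers PYK10 and EXPA18 from 156 to 13975.6. Seed and flower markers had no probe set with a single gene and were not analysed here. The C24-LUC array stood apart in the actin control probe sets, by a low 3 prime signal. Whether RNA quality differed between the arrays was not tested. That signal was 1024.6 in C24-LUC, against 7531.3 to 8065.5 on the other arrays. The 5 prime signal, 4950 in C24-LUC, lay inside their range of 4526.3 to 5699.6. The ratio of 3 prime to 5 prime actin signal was 0.207 in C24-LUC, against 1.38 and 1.58 in sta1 and 1.35 to 1.68 in Col-LUC. The same ratio for ubiquitin was 1.18 in C24-LUC, against 1.67 and 1.69 in sta1 and 1.58 to 1.65 in Col-LUC. For GAPDH it was 1.02 in C24-LUC, within the range of 0.979 to 1.15 in Col-LUC. The part of these differences in the signals below was not tested. C24-LUC was hybridised once, on a chip lot that no other array record names, and the strain, the sample, the lot and the array cannot be told apart. The record of Col-LUC 4 names no lot, and that array was treated as a lot of its own where chip lot was a block.

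AT1G61500, the receptor kinase, had the brightest probe set of the 4 on the C24-LUC array. It reached 1442.7 on the C24-LUC array, against 51.4 and 70.1 in sta1 and 36.3, 110.1, 55.0 and 107.4 on Col-LUC arrays 1 to 4. The C24-LUC value was 13.1 times the highest of the other 6 arrays, and the sta1 values lay inside the Col-LUC range. On the C24-LUC array this probe set stood above 89.7% of all plant probe sets, while on the other arrays it stood above 20.2% to 37.0% of them. With signals under 50 set to 50 before taking log2, it was 10.49 in C24-LUC and 6.24 ± 0.61 in Col-LUC (SD, n = 4), a difference of 4.26 on the log2 scale. The size depends on the floor, since the Col-LUC values are weak, and it was 3.79 with a floor of 100.

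AT5G15360 had a signal of 796.8 in C24-LUC, against 96.5 and 121.3 in sta1 and 44.3, 61.2, 63.3 and 75.7 in Col-LUC. The groups did not overlap, and sta1 lay between the wild-type strains, far closer to Col-LUC. On the log2 scale C24-LUC exceeded sta1 by 2.88 and Col-LUC by 3.69, and the Col-LUC spread was the smallest of the 4 genes, at 5.95 ± 0.25 (SD, n = 4).

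AT4G22450, the annotated pseudogene, had a signal of 795.7 in C24-LUC. It had 43.4 and 84.1 in sta1, and 53.2, 76.6, 105.7 and 54.2 in Col-LUC. The sta1 and Col-LUC values overlapped, and C24-LUC was 7.53 times the highest of them. The log2 difference was 3.62 from sta1 and 3.52 from Col-LUC.

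AT1G09500, the reductase, had a signal of 690.9 in C24-LUC, 76.8 and 51.9 in sta1, and 58.4, 101.9, 3.4 and 97.3 in Col-LUC. The value on Col-LUC 3 was close to the lowest signals of the array, above 3.76% of probe sets, and the floor of 50 hides how low it was. C24-LUC was 6.78 times the highest other array, and on the log2 scale it exceeded sta1 by 3.45 and Col-LUC by 3.24.

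**Figure D1:**
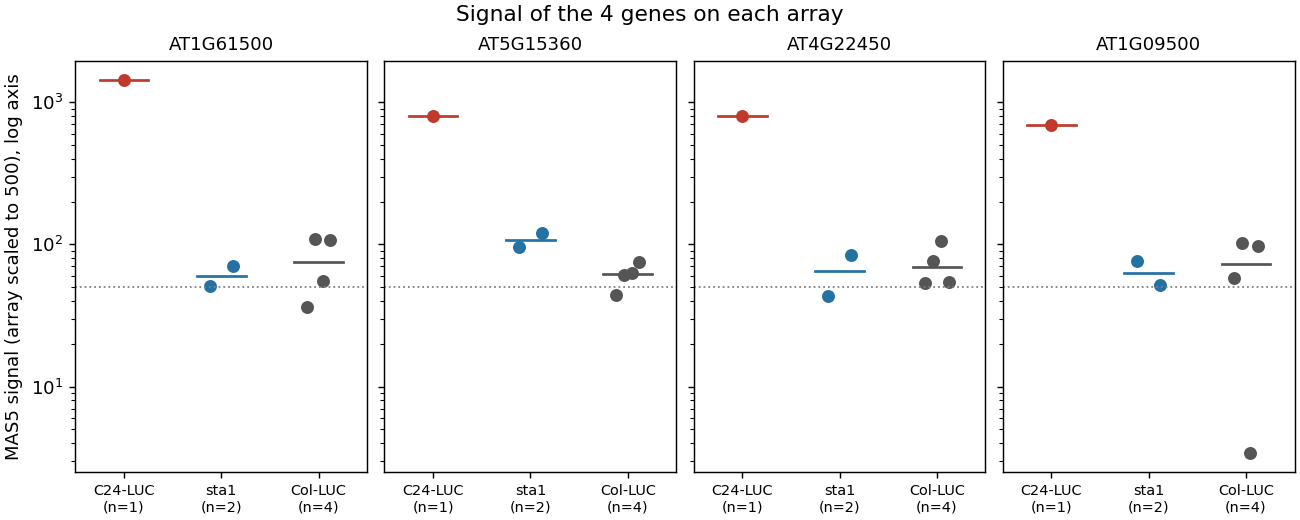
Signal of each gene on each of the 7 arrays, on a log axis, with C24-LUC (n = 1), sta1 (n = 2) and Col-LUC (n = 4) from left to right. Points are arrays, short lines are group means of log2 signals after setting values under 50 (dotted line) to 50. The C24-LUC points lie between 690.9 and 1442.7, and no other point is above 121.3.

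Outside C24-LUC the 4 genes were near the lower limit of what the array resolves. Of the 24 values on sta1 and Col-LUC arrays, 5 reached a signal of 100 and 4 lay under 50. In sta1, 1 of 8 values reached 100, and in Col-LUC 4 of 16 did. The deposited table used here gives no detection calls, so it was not settled whether these weak values are transcripts or background light. The Col-LUC SD of the 4 genes ran from 0.25 to 0.61 on the log2 scale. The median was 0.48 among 186 tested probe sets with Col-LUC means in the same range.

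The order of the 4 genes in C24-LUC cannot be read as an order of transcript amounts, since different probe sets differ in brightness. Over all 7 arrays the log2 signals of the 6 pairs of these genes correlated at r between 0.87 and 0.98, a description that rests on the shared C24-LUC array. Over the 6 sta1 and Col-LUC arrays the same correlations ran from -0.47 for AT4G22450 with AT1G09500 to 0.75 for AT1G61500 with AT1G09500. The shared high value in C24-LUC was set by the choice of the 4 genes, which also makes the correlations over 7 arrays high. Among the weak values of the other arrays the 4 genes had no single order. THI2.2, a thionin, had the pattern most like AT1G61500 (r = 0.98 over 7 arrays, across probe sets with 1 gene), and was also among the closest 3 for AT4G22450 (r = 0.98). The closest to AT5G15360 was AT4G03260 (r = 0.99), whose signals spanned only 1083.1 to 1552. The closest to AT1G09500 was AT1G61500 itself.

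The 4 genes were chosen from the largest positive differences between C24-LUC and Col-LUC among genes that passed the fit, which called 32 of 15673 tested probe sets higher in C24-LUC (0.204%). Just inside that choice was AT1G09500, at 3.24 on the log2 scale, and just outside it was AT5G55570, at 3.15, with a signal of 857.4 in C24-LUC, 45.9 to 75.3 in sta1 and 84.3 to 113.1 in Col-LUC. THI2.2 had a larger difference than any of the 4, at 4.36, but its signals outside C24-LUC were stronger than theirs. They were 9226.8 in C24-LUC, 318.7 to 462.7 in sta1 and 331.1 to 600.1 in Col-LUC.

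All 4 genes passed the filter on low signals, which asked for 100 on at least 2 arrays, by C24-LUC and only 1 or 2 further arrays. Genes still weaker outside C24-LUC were dropped by it. In a count chosen after the values were seen, 8 of 22746 probe sets had at least 690.9 in C24-LUC and at most 121.3 on each other array, the limits set by the 4 genes themselves. The other 4 were AT4G29200, AT2G29170, AT5G55570 and 1 probe set with no gene assigned in the table used here. AT4G29200 had a signal of 3610.5 in C24-LUC, 58.2 and 74.6 in sta1, and 16.9 to 35.8 in Col-LUC. With all Col-LUC arrays under 50 it was at least 72.2-fold higher in C24-LUC. AT2G29170 had 811.8 in C24-LUC, 11 and 43.4 in sta1 and 25.8 to 46.1 in Col-LUC, at least 16.2-fold higher. The unassigned probe set had 3583 in C24-LUC, 20.6 and 35.3 in sta1 and 44.5 to 91.6 in Col-LUC. Of these 8, 3 had not been tested because of the filter. With 100 on at least 1 array, AT1G09500 held place 8 among the named genes called higher in C24-LUC, against place 5 with 2 arrays. The mirrored pattern, at most 121.3 in C24-LUC and at least 690.9 on each other array, was met by 4 probe sets.

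**Figure D2:**
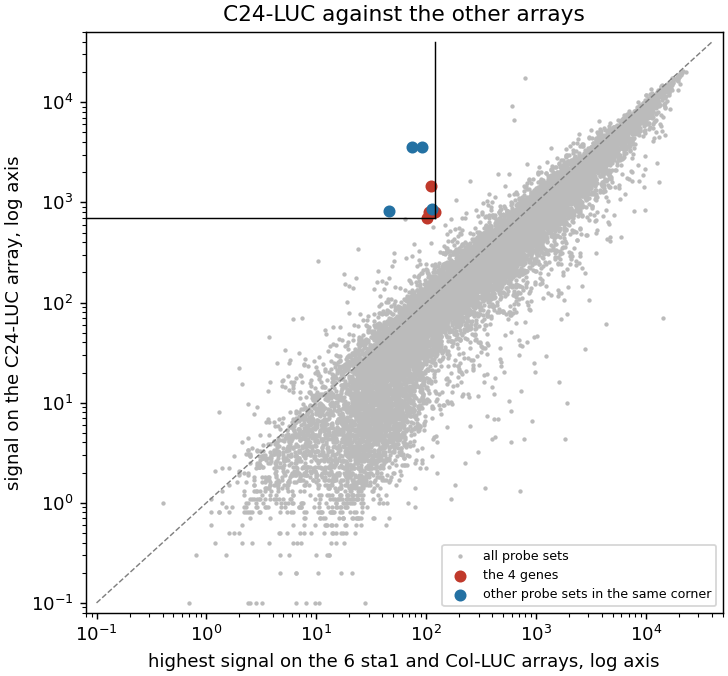
Signal on the C24-LUC array against the highest signal on the 6 sta1 and Col-LUC arrays, for all plant probe sets, on log axes. Solid lines mark 690.9 and 121.3, the limits set by the 4 genes (red), the dashed line marks equal values, and the corner holds 4 further probe sets (blue).

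The comparison of sta1 with Col-LUC asked whether the mutant differs from Col-LUC in these genes. It was not used to choose them, but it shares the Col-LUC arrays with the comparison that was. The low Col-LUC values were part of that choice, and AT5G15360, AT4G22450 and AT1G09500 passed the filter only with C24-LUC. The values below are therefore not independent of the choice, and their p-values are not an independent test. In the fit of 3 groups with limma, 0 of the 4 genes passed the Benjamini-Hochberg threshold of 0.05 over all 15673 tested probe sets, where 1.26% of probe sets were called, 0.619% higher and 0.644% lower in sta1. At an unadjusted p under 0.05 there was 1 of the 4, against 24.9% of all tested probe sets. That background changed when an array was left out: without Col-LUC 1 the fit called 1430 probe sets higher and 1368 lower, and it called 0 in both directions without any 1 of Col-LUC 2, Col-LUC 3, Col-LUC 4, sta1 1 or sta1 2.

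AT5G15360 was the gene with both sta1 arrays above all Col-LUC arrays, a pattern met by 20% of tested probe sets. Its log2 signal was 6.76 ± 0.23 in sta1 (SD, n = 2) and 5.95 ± 0.25 in Col-LUC (SD, n = 4). The difference was 0.81 ± 0.25 (SE), a ratio of 1.75 with a 95% interval of 1.17 to 2.61, and the adjusted p by limma was 0.116. This gene passed the filter only with C24-LUC, and low Col-LUC values were part of its choice. Neither the interval nor the p is therefore an independent test. Over the alternatives the adjusted p ran from 0.0737 to 0.489. Against Col-LUC 1, the array from the chip lot of both sta1 arrays, the difference was 1.11. It shrank to 0.14 when signals under 100 were set to 100, a level that only sta1 2 exceeded.

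The other 3 genes overlapped between sta1 and Col-LUC. The difference of AT1G61500 was -0.33 ± 0.40, a ratio with a 95% interval of 0.416 to 1.52 (limma adjusted p = 0.622). For AT4G22450 it was -0.10 ± 0.37, with an interval of the ratio of 0.513 to 1.70 (limma adjusted p = 0.881), and for AT1G09500 it was -0.22 ± 0.37, with an interval of 0.471 to 1.57 (limma adjusted p = 0.736). Each interval holds ratios on both sides of 1, so neither equal levels nor a difference up to those limits was shown. All 3 differences were positive against Col-LUC 1 alone, at 0.26, 0.29 and 0.11. The median difference of the 4 genes was -0.16, beside 0.01 over all tested probe sets. Of the 4 green tissue markers, limma called 1 lower in sta1 than in Col-LUC, beside 0.644% of all tested probe sets. An unadjusted p under 0.05 was found for 3 of the 4, beside 24.9% of all. All 4 differences were negative, with a median of -0.51. The called one was PSAN, a subunit of photosystem I, with 2531.7 and 1932 in sta1 and 7611.4, 10674.5, 9916.4 and 11499.4 in Col-LUC, a difference of -2.15 ± 0.19 (SE; limma adjusted p = 0.0215). That call was lost when any 1 sta1 or Col-LUC array other than Col-LUC 1 was left out, or with chip lot or replicate number as a block, since 0 probe sets were then called. The part of these markers in the sta1 values of the 4 genes was not tested.

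Setting sta1 against all 5 wild-type arrays, as the series' design states, mixes the strains. The wild-type SD of AT1G61500 then grew to 1.98 (n = 5), and that of AT5G15360 to 1.66. The differences were -1.18 ± 1.16 for AT1G61500, 0.07 ± 0.98 for AT5G15360, -0.80 ± 0.97 for AT4G22450 and -0.86 ± 0.91 for AT1G09500. In this fit by limma 0 of the 4 passed, with adjusted p between 0.568 and 0.974, where 1.31% of all tested probe sets were called. At an unadjusted p under 0.05 there were 0 of the 4 and 23.5% of all. The 95% interval of AT1G61500 ran from -3.85 to 1.48 on the log2 scale. The C24-LUC values used to choose the 4 genes belong to the wild-type group here and widen its spread. This fit therefore cannot show whether sta1 differs in the 4 genes.

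**Figure D3:**
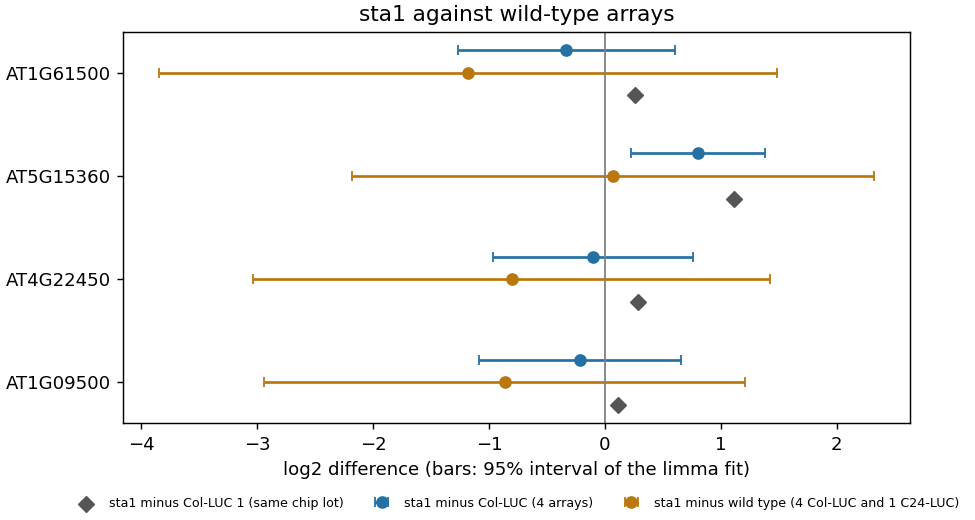
Log2 difference of each gene between sta1 and Col-LUC (upper point of each gene), between sta1 and all 5 wild-type arrays (middle) and between sta1 and Col-LUC 1 of the same chip lot (lower, with no error). Bars are 95% intervals of the limma fits, and those of the middle points are wider because the C24-LUC array counts as wild type.

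The nearest measured genes around each of the 4 did not share their high signal in C24-LUC. Taking the 5 nearest measured genes on each side in the order of the TAIR10.1 gene table, 40 neighbours were examined and 22 of them were tested. The other 18 stayed under 100 on every array. Genes without a probe set for 1 gene were skipped, so the neighbours lay 1 to 27 places away. Many directly adjacent genes were thus not examined. With 1 array, C24-LUC has no spread of its own, and the fit assumes that it varies like sta1 and Col-LUC, here and in the lists that follow. By limma 0 of the 22 were called between C24-LUC and Col-LUC, where 1.37% of all tested probe sets were called, and 3 had an unadjusted p under 0.05, against 12.5% of all. The differences of all 40 ran from -1.36 to 0.57 on the log2 scale. Where all C24-LUC and Col-LUC values lay under 50, as for AT1G61490, the floor set the difference to 0. C24-LUC lay above all Col-LUC arrays in 3 of the 22, beside 24.9% of all tested probe sets. Counting also neighbours under 100 on every array, it did so in 10 of the 40, and in 6 of the 10 around AT1G61500. The share over untested probe sets was not counted.

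Beside AT1G61500, the adjacent S-domain kinase AT1G61490 had 47.5 in C24-LUC, 46.4 and 15.3 in sta1, and 2.7 to 35.7 in Col-LUC. The next, AT1G61480, had 79.0 in C24-LUC, 35.6 and 31.8 in sta1 and 22.3 to 63.2 in Col-LUC. In the run of 13 further S-domain kinases listed from AT1G61360 to AT1G61610, 9 stayed under 100 on every array. SD1-29, picked from this run after its values were seen, had 384.2 in C24-LUC, 387.1 and 326.7 in sta1 and 179.4 to 343.8 in Col-LUC. Beside AT4G22450, the protein-coding gene AT4G22460 had 148.3 in C24-LUC, 148.5 and 138.6 in sta1 and 107.7 to 170.3 in Col-LUC. AT4G22470, a protein of the lipid transfer family, had 103.7 in C24-LUC, 846 and 470.1 in sta1 and 106 to 906.4 in Col-LUC, the largest negative difference among the neighbours. At 4 places from AT5G15360, AT5G15320 had 768.9 in C24-LUC and lay between 1007.3 and 1480.6 in Col-LUC, a difference of -0.60 on the log2 scale. Beside AT1G09500, the reductase AT1G09510 had 44.3 in C24-LUC, 62 and 93.1 in sta1 and 34.8 to 85.1 in Col-LUC.

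**Figure D4:**
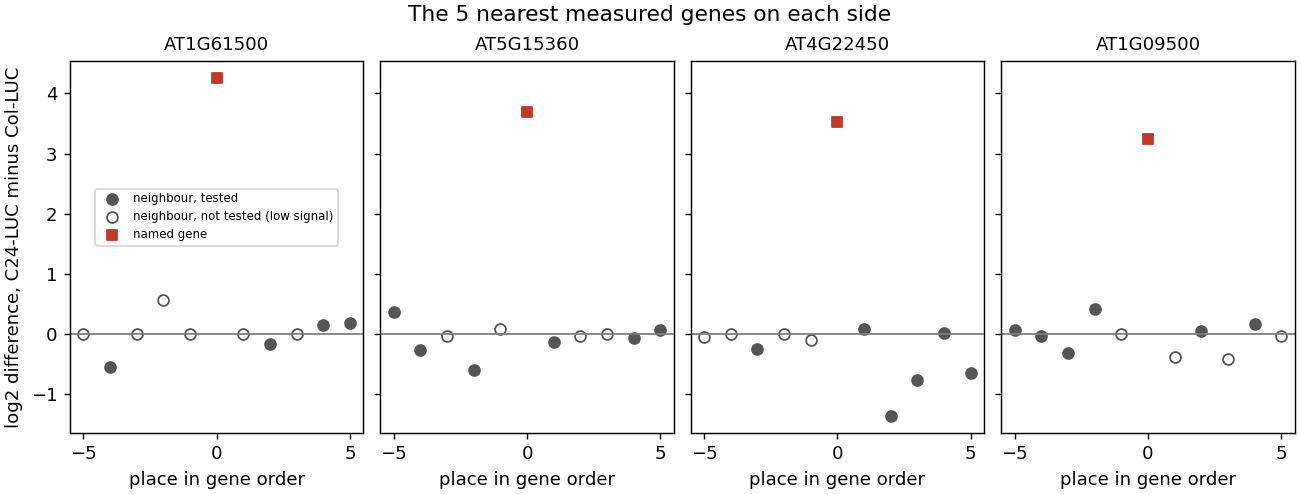
Log2 difference between C24-LUC and Col-LUC for the 5 nearest measured genes on each side of each of the 4 genes, in gene order. Squares are the 4 genes, between 3.24 and 4.26, filled circles are tested neighbours and open circles neighbours below the filter, all between -1.36 and 0.57.

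Related genes elsewhere in the genome were followed in 3 lists. Of 37 listed S-domain receptor kinases other than AT1G61500, 27 had a probe set with 1 gene and 11 were tested, and 14 of the 27 stayed under 100 on every array. By limma 0 of the 11 were called between C24-LUC and Col-LUC, beside 1.37% of all tested probe sets. An unadjusted p under 0.05 was found for 2 of the 11, beside 12.5% of all, and the median difference was 0.43, beside 0.03 over all tested probe sets. The members with the smallest p were AT1G61370, with a log2 difference of 0.85, and AT4G11900, with 1.02. For sta1 against Col-LUC limma called 0 of the 11, beside 1.26% of all, 0 had an unadjusted p under 0.05, beside 24.9% of all, and the median was -0.08.

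Of 21 reductases of the cinnamoyl-CoA and dihydroflavonol type, 9 were tested, and by limma 0 were called in either comparison, beside 1.37% of all tested probe sets for C24-LUC and 1.26% for sta1. Between C24-LUC and Col-LUC 1 of the 9 had an unadjusted p under 0.05, beside 12.5% of all. It was AT2G02400, which stood at -0.97 on the log2 scale, and the list had a median of 0.32. For sta1 against Col-LUC, 4 of the 9 had an unadjusted p under 0.05, beside 24.9% of all, with a median of 0.43. The smallest p there belonged to AT2G23910, at 2.83 ± 0.71 (limma adjusted p = 0.0858), and to DFR, the dihydroflavonol reductase of anthocyanin synthesis, at 3.12 ± 0.89 (adjusted p = 0.105). Without Col-LUC 1 both passed, with adjusted p of 0.0120 for AT2G23910 and 0.00331 for DFR. With chip lot as a block, which leaves sta1 against Col-LUC 1, the differences shrank to 1.38 for AT2G23910 (limma adjusted p = 0.266) and 0.85 for DFR (adjusted p = 0.285). AT1G09500 itself stood at -0.22 in that comparison.

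Of 22 lipid transfer and hybrid proline-rich proteins, a list that includes genes beside AT4G22450, 9 were tested and by limma 0 were called in either comparison, beside 1.37% of all tested probe sets for C24-LUC and 1.26% for sta1. An unadjusted p under 0.05 was found for 2 of the 9 for C24-LUC, beside 12.5% of all, and 3 of the 9 for sta1, beside 24.9% of all. The median difference was -0.76 in C24-LUC and -0.09 in sta1. AT2G10940 stood at -0.75 in C24-LUC and AT4G22490 at -0.76. In sta1 AT2G10940 stood at -0.53 ± 0.17 (SE; limma adjusted p = 0.120) and AT4G12500 at 1.12 ± 0.40 (adjusted p = 0.152). Without Col-LUC 1 both passed, with limma adjusted p of 0.0304 for AT2G10940 and 0.0164 for AT4G12500. With chip lot as a block the differences were -0.26 for AT2G10940 (limma adjusted p = 0.509) and 0.22 for AT4G12500 (adjusted p = 0.536).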

How the data were processed

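Total RNA of seedlings was hybridised to 7 ATH1 arrays. The deposited values are signal intensity per probe set from MAS5, globally scaled by the authors to 500 on each array, per the labels; no MAS5 version is given there. The other deposited values used were the chip lots in the array records. No sequence was used. Gene order was taken from the RefSeq gene table of TAIR10.1, and coordinates are not given, since the deposited files name no build.

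The 64 control probe sets were set aside. Signals below a floor of 50 were raised to it before log2, and a probe set was tested if 2 or more arrays reached 100, which held for 15673 of 22746. Models were fitted in R 4.3.3 by limma 3.58.1, using lmFit and a trended eBayes, with Benjamini-Hochberg adjustment over every tested probe set. The fit was run on simulated data with independent normal noise and no effect of chip lot or array. That run does not bear on how calls change when arrays are left out or blocked. sta1 was compared with Col-LUC in a fit of all groups, where C24-LUC, with 1 array, borrows the spread of the rest, and with all 5 wild-type arrays. Alternatives covered the floor, the filter, the normalization, the trend, blocks and left-out arrays. The number of arrays limits the precision. The platform table gave 13513 probe sets 1 gene, of which 13436 matched the RefSeq table of TAIR10.1, 503 several genes and 8730 none.

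The 4 genes and the lists were chosen with earlier results of these data known. Other genes named were the 10 largest called rises in C24-LUC above all Col-LUC arrays, the 5 measured neighbours on each side, the 3 probe sets with the highest Pearson r over 7 and over 6 arrays, and from each list up to 4 called genes or, with none, the 2 with the smallest p. Genes outside this rule are marked as chosen after their values were seen.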

Additional observations from a re-analysis of the deposited data

Results flagged for a closer look

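Among the 4 Col-LUC arrays, DFR had a signal of 1762.3 on Col-LUC 1, far from the 141.1 to 342.5 of the other 3. It was the only such case in 34 probe sets examined, the 4 genes included, judged on signals before log2. Chance flags about 1 in 20 groups of 4, or 1.7 of them, if values are normally distributed. Signals before log2 need not be so distributed, and the flag may not hold on the log2 scale. DFR had signals of 2897.4 and 3503.6 in sta1, and Col-LUC 1 shared its chip lot with both of those arrays. The sta1 difference was 3.12 on the log2 scale against all Col-LUC arrays and 0.85 with chip lot as a block.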

How the results depend on the processing

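The C24-LUC minus Col-LUC differences of the 4 genes stayed between 2.78 and 4.44 in every setting that gave a value; with a floor of 100 AT5G15360 stood at 2.99 and AT4G22450 at 2.97, since Col-LUC values under 100 are raised to it. Neither block gave a C24-LUC value. No gene of the 4 passed in sta1 in any setting in which it was tested. Against Col-LUC, 0 probe sets passed under each block or without any 1 of Col-LUC 2, Col-LUC 3, Col-LUC 4, sta1 1 or sta1 2. In those settings the result is not particular to the 4 genes. The cause of the changes of sign below was not tested. Against Col-LUC, AT1G09500 stood at 0.19 with a floor of 16. With chip lot as a block, AT1G61500 stood at 0.26, AT4G22450 at 0.29 and AT1G09500 at 0.11, the same in both sta1 comparisons, since the block leaves sta1 against Col-LUC 1. With the replicate number as a block (replicate block), AT4G22450 stood at 0.023 in both. Leaving out single arrays gave -0.48 to 0.27 for AT4G22450 and -0.50 to 0.066 for AT1G09500 against Col-LUC, and -0.19 to 0.23 for AT5G15360 against 5 wild-type arrays, where it was -0.46 with a floor of 100. A gene left with 1 array at 100 was not tested: AT5G15360 without sta1 2, AT4G22450 without Col-LUC 3, AT1G09500 without Col-LUC 2, and these 3 without C24-LUC.

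Calls by limma in sta1 against Col-LUC, higher and lower, were 35 and 6 without a filter, 59 and 60 with 100 on 1 array, 62 and 50 without a trend, and 0 and 0 under each block, with 2293 probe sets at an unadjusted p under 0.05 by lot and 2198 by replicate. Leaving out single arrays gave 0 to 1430 higher and 0 to 1368 lower. Against 5 wild-type arrays, 141 were higher with a floor of 100, 28 lower without a filter, 71 lower without a trend, and 0 in both directions under each block, and single arrays gave 0 to 647 higher and 0 to 735 lower. In C24-LUC, 69 were higher with a floor of 100, 234 without a filter and 62 with 100 on 1 array, and single arrays gave 6 to 170 higher and 57 to 312 lower. The replicate numbers are shared by only 2 pairs, whose deviations correlated at 0.19 and -0.01, so they were not taken to pair the samples.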

Other observations

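Over the 6 sta1 and Col-LUC arrays alone, where the 4 genes are weak, other probe sets followed each of them most closely. For AT1G61500 these were AT5G01300 (r = 0.99), AT4G17370 (0.99) and AT1G20823 (0.98), and for AT1G09500 they were AT3G47650 (0.99), AT1G54520 (0.99) and AT1G08110 (0.99). For AT5G15360 they were AT2G42330, AT2G37650 and AT4G37880, with r between 0.98 and 0.99. For AT4G22450 the closest was AT5G35370 (0.98), an S-domain receptor kinase with signals of 144.6 to 203.9 on these arrays. These values describe the closest among all tested probe sets with 1 gene over only 6 arrays, and no test was made of them.

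Further named genes among the 10 largest called differences in C24-LUC were AT1G50290, with 1634.8 in C24-LUC and 124.3 to 248.9 in Col-LUC, AT1G23850, with 587.8 and 79.5 to 148.8, AT4G15260, with 482.9 and 78.7 to 154.1, and AT4G27050, with 781.7 and 150.5 to 197.1. With the filter at 1 array, AT3G48640 also stood among them, with 688 in C24-LUC, 44.8 and 64.6 in sta1, and 1.3 to 38.6 in Col-LUC.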
